A study of Homo sapiens with 36 samples.

Results

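The genes described here encode 7 proteins that act at the cell surface in invasion and migration: urokinase (PLAU) and its receptor (PLAUR), the chemokine receptor CXCR4, its ligand CXCL12 and the second receptor of that ligand (ACKR3), and the receptor tyrosine kinases MET and AXL. They were taken as a fixed set of 7 out of 20007 protein-coding genes in the annotation, and every peak whose summit lay in the gene body of a member or within 50 kb on either side was assigned to it. Peaks came from Cut&Run, in which an antibody directs a nuclease to cut the DNA around a bound protein, in 786-O cells, a clear cell renal carcinoma line that has lost VHL and makes no functional HIF-1α. The peaks of overlapping position were merged across libraries into 61215 regions, of which 25783 were called in at least 2 libraries (consensus regions), and 57 regions, 32 of them consensus, belonged to a member.

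The 18 anti-V5 libraries came from 6 lines with 3 replicates each, and each was set by the authors against its own IgG control. WT cells carry no V5 tag and give the background of the antibody. The KIN line is 1 homozygous clone (A31) in which endogenous HIF-2α has an N-terminal V5-HaloTag. The 4 other lines are stable lines, made by transposition and antibiotic selection, that express V5-HaloTag fusions from an L30 promoter: HIF-2α, HIF-1α, the hybrid HIF-2α/1α (residues 1 to 365 of HIF-2α followed by 364 to 826 of HIF-1α) and the hybrid HIF-1α/2α (residues 1 to 363 of HIF-1α followed by 366 to 870 of HIF-2α). These 4 lines still hold their own untagged HIF-2α. They combine the N-terminal part, which holds the DNA-binding and dimerisation domains (DBD), with a C-terminal part that is mostly disordered (IDR). Lines that share a part can thus be compared with lines that do not. The lists hold no expression values, so cell identity was not checked against marker genes, and nothing here measures the RNA of the members. The labels do not say whether replicates came from separate cultures, and p-values therefore measure only the spread between these libraries. WT is a single line, as is each construct, and all tests take libraries, not lines, as their units. Differences by IDR, by DBD, or between any lines cannot be told apart from other differences between the lines, such as the amount of tagged protein. The paper reports that expression from the L30 promoter varied even in stable lines, and the lists do not measure it.

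As background, urokinase cleaves plasminogen to plasmin, a protease that degrades matrix, and PLAUR holds urokinase at the membrane. CXCR4 signals through G proteins on binding CXCL12, whereas ACKR3 takes up the same ligand. MET is the receptor of hepatocyte growth factor, and AXL is the receptor of GAS6. HIF-α subunits pair with HIF-1β and bind the hypoxia response element (HRE), whose core is RCGTG, where R is A or G. CXCR4, MET and AXL are known as hypoxia-responsive genes.

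The tagged lists held 3984 to 20808 peaks and the WT lists 392, 9508 and 743. WT replicate 2 stood apart and was longer than 4 of the 15 tagged lists, and replicate 2 gave the longest list in 6 of 6 lines. The depth recovered from the lists was 0.241 to 0.625 fragments per base of genome, and no total read count was used. Because lists differ in length, the results that rest on WT replicate 2 are given with and without it.

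The sequences below show what lies under some of the summits that carry the results. Each is the hg38 plus strand, 201 bases centred on the median summit, with every RCGTG (either strand, so also CACGY, where Y is C or T) and every AP-1 site TGACTCA or TGAGTCA in capitals. AP-1 is the factor family of Fos and Jun. The first region, in intron 2 of MET at chr7:116706789-116706989, and the second, just past the end of MET at chr7:116801209-116801409, hold no RCGTG, and the second holds 1 AP-1 site. The third, in intron 4 of AXL at chr19:41225849-41226049, holds an AP-1 site close to an RCGTG. The last, upstream of MET at chr7:116653395-116653595, holds 1 of each. They are 4 of the 9 member regions outside untranslated exons that were called in 12 or more tagged libraries. Of the 5 not shown, PLAU −2.2 kb and MET +44.7 kb hold neither motif in the same window, MET +63.9 kb and PLAU +57.1 kb hold 1 AP-1 site each and PLAUR −31.1 kb holds 1 RCGTG.
MET +34.7 kb: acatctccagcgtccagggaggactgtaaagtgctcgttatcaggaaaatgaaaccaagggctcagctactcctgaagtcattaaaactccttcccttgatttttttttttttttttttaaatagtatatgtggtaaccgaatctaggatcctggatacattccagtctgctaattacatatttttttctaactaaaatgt
MET +129.1 kb: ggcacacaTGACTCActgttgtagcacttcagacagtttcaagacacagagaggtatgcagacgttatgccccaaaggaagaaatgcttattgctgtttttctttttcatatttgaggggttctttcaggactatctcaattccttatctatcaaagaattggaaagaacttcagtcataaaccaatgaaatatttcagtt
AXL +6.7 kb: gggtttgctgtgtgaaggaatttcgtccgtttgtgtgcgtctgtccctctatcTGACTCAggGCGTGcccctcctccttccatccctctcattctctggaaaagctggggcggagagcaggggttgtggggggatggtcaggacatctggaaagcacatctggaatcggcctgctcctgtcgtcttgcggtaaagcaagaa
MET −18.7 kb: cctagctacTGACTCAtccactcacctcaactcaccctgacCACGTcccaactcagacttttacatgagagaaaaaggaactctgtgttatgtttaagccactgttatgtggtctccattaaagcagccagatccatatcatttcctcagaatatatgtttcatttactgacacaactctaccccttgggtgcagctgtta

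At the promoters of MET and PLAUR the median summits fell in annotated untranslated sequence, and 29 bases around each median summit are shown. The MET stretch, chr7:116672301-116672329, holds an AP-1 site and an RCGTG. The PLAUR stretch, chr19:43670338-43670366, holds an AP-1 site at the summit itself.
MET +0.1 kb: gcTGAGTCActggcagggcagcgcGCGTG
PLAUR +0.2 kb: tggctcggcccTGACTCAtggagttgtga

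Regions are named by the member and by the distance of the median summit from the first annotated base of the gene in GENCODE, negative upstream. For PLAU and PLAUR the MANE Select transcript starts further inside the gene body, so that PLAU −2.2 kb lies at −4.1 kb, PLAU +0.0 kb at −1.9 kb and PLAUR +0.2 kb at −0.2 kb from that start. For MET and AXL both starts are the same.

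Peaks of tagged HIF were found in most tagged libraries near 4 of the 7 genes and in at most 2 tagged libraries near the other 3. MET had the most peaks, with 3 to 16 in each of the 15 tagged libraries (median 9) and none in any WT library. AXL had 1 to 6 (median 4), PLAUR 1 to 5 (median 3) and PLAU 0 to 6 (median 3). CXCR4, CXCL12 and ACKR3 had at most 1 peak in any library.

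**Figure D1:**
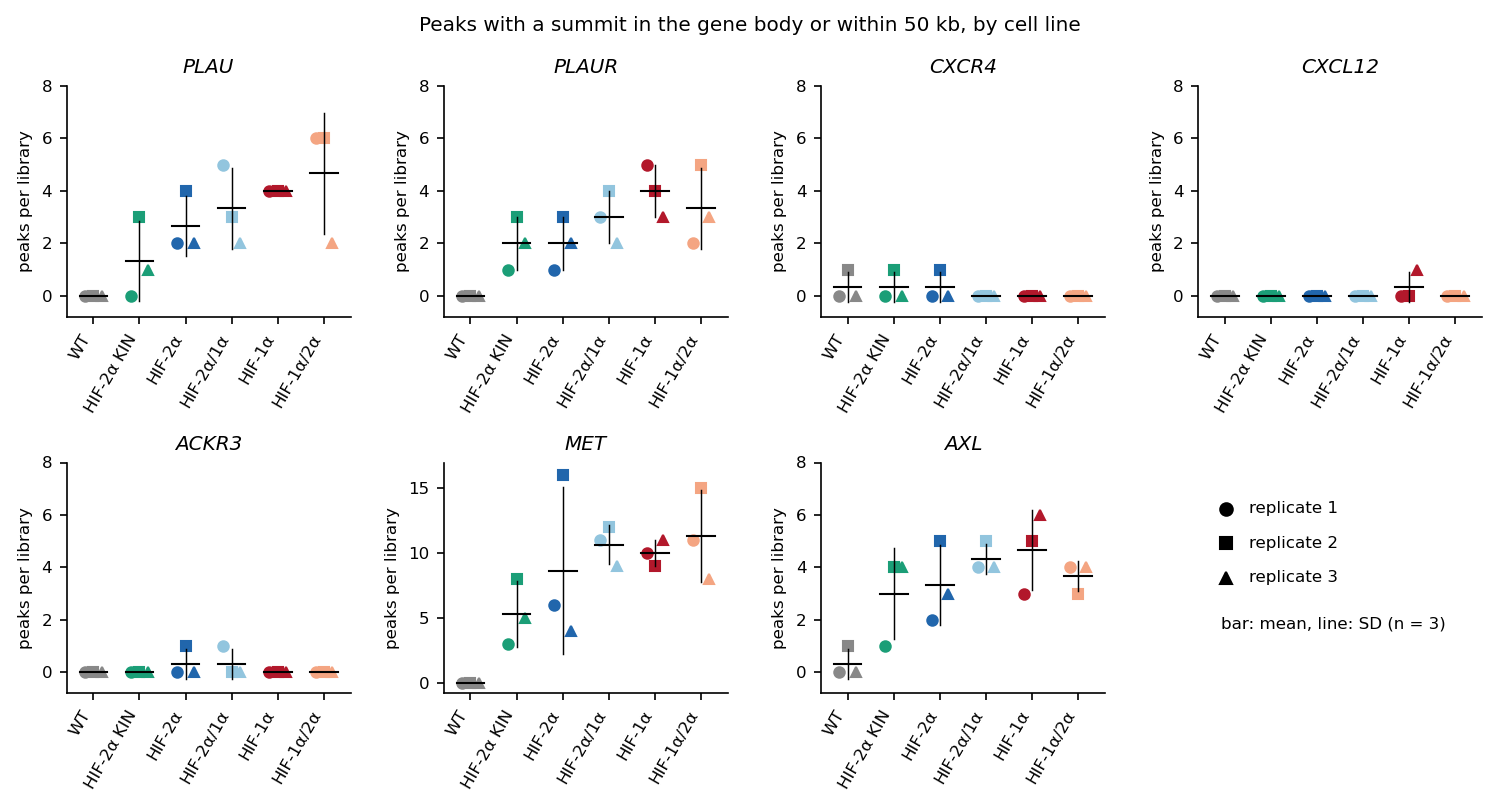
Number of peaks per library (y axis) with a summit in the gene body or within 50 kb, for each of the 7 genes and 6 lines (x axis), with 1 symbol per replicate, a bar at the mean and a line for the SD (n = 3). The MET panel has its own scale, up to 16 peaks in HIF-2α replicate 2, and PLAU, PLAUR and MET are at 0 in the 3 WT libraries.

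The question of this first comparison was whether the peaks near a gene depend on the tag. MET had a mean of 9.2 ± 3.73 peaks in tagged libraries (SD, n = 15) against 0 in WT (n = 3), and the exact permutation test gave p = 0.00123, the smallest that its 816 relabellings allow, with an adjusted p of 0.0233 over the 16928 genes tested. PLAUR had 2.87 ± 1.25 against 0, with the same adjusted p of 0.0233 in the exact test. AXL had 3.8 ± 1.26 against 0.33 ± 0.58, with an adjusted p of 0.0364 in the exact test. PLAU had 3.2 ± 1.74 against 0, and its adjusted p of 0.0771 in the exact test did not pass the threshold of 0.05. KIN replicate 1, the shortest tagged list, had no peak near PLAU, and without that library the adjusted p of the exact test was 0.0277. Other settings gave no pass for PLAU in the exact test. The adjusted p was 0.799 in lists of equal length, 0.0807 at −log10 q of at least 5 and 0.247 with a window of 10 kb. Thus 3 of the 6 members tested were called higher in tagged cells, where 10.4% of all genes tested were. CXCL12, with a peak in a single library, was not tested.

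The windows differ in length, which bears on these counts: the MET window spans 226.2 kb and those of the other members 104.8 to 142.5 kb. Set against all 20007 protein-coding genes, 0.5% had a higher mean over tagged libraries than MET, 8.1% than AXL, 11.5% than PLAU and 14.1% than PLAUR. For CXCR4, CXCL12 and ACKR3 these shares were 79.0%, 83.3% and 79.0%. With 100 kb on either side the difference between tagged and WT libraries was 2.93 peaks for ACKR3 (adjusted p = 0.143 in the exact test), against 0.13 with 50 kb, and −0.13 for CXCR4. Other genes share some windows: 6 protein-coding genes besides PLAUR, 4 besides AXL, and 1 each besides PLAU (CAMK2G) and MET (CAPZA2) overlap them, while the windows of CXCR4, CXCL12 and ACKR3 hold no other.

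With each list cut to its 3984 strongest peaks, the length of the shortest tagged list, MET kept 3 to 6 peaks per tagged library (median 4), PLAUR 1 to 2 and AXL 1 to 3. PLAU then had 6 peaks in all over the 15 libraries, and CXCR4, CXCL12 and ACKR3 had none. In these cut lists AXL no longer passed, with a difference of 1.33 peaks between tagged and WT libraries and an adjusted p of 0.0812 in the exact test. The cut made the tagged lists equal in length, but WT replicates 1 and 3, with 392 and 743 peaks, stayed shorter. Tagged and WT libraries were therefore not compared at equal length. Without any 1 of the 3 WT libraries no member was called, because 2 WT libraries leave too few relabellings for a small p. Without WT replicate 2 the adjusted p was 0.0633 for MET, PLAUR and AXL alike.

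**Figure D2:**
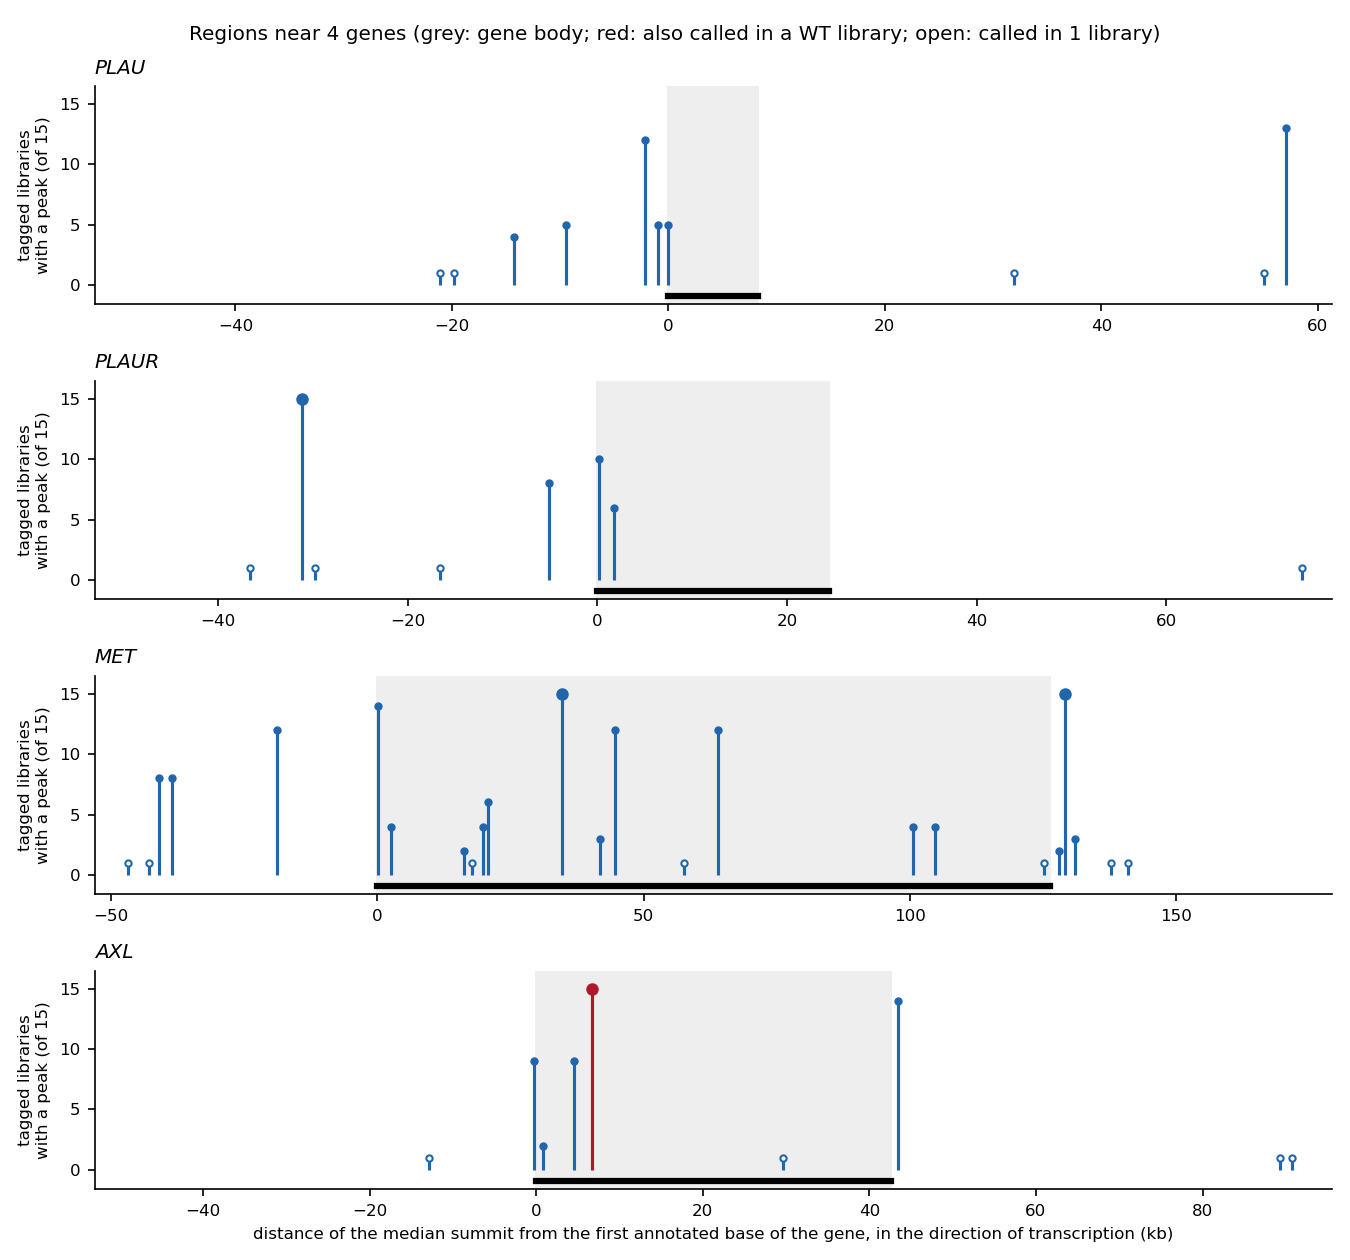
Regions near PLAU, PLAUR, MET and AXL, placed by the distance of the median summit from the first base of the gene (x axis, kb, in the direction of transcription) and drawn to the number of the 15 tagged libraries with a peak (y axis). Large points mark the 4 regions called in all 15, of which the AXL region, in red, was also called in 1 WT library, and open points mark regions called in a single library.

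Of the 32 consensus regions, 11 were called in 12 or more of the 15 tagged libraries, 8 in 6 to 11 and 13 in fewer. The shares of all consensus regions in these classes were not counted. By the annotation of the summit against protein-coding genes, 14 were intergenic, 14 intronic and 4 in an untranslated exon part, and none was in coding sequence. The nearest protein-coding start was that of the member for 26 of the 32, and 5 lay within 1 kb of the member's first base. Only 1 of the 32 was called in a WT library. WT calls were few in general: of all 25783 consensus regions, 25285 were called in fewer than 2 WT libraries. WT replicates 1 and 3 hold only 392 and 743 peaks. Called in all 15 tagged and no WT library were 3 member regions, PLAUR −31.1 kb, MET +34.7 kb and MET +129.1 kb. They passed Fisher's exact test (p = 0.00123, adjusted p = 0.0263), where 4.66% of all consensus regions did. No other pattern of calls passed, so the test restates this one and adds no separate evidence. With any one of the 3 WT libraries left out, which allows no p as small, 0 member regions passed, and without KIN replicate 1, 5 did.

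Fold enrichment is the ratio of the fragment pileup at the summit to the background with 1 added to both. No member region was the strongest in every library: HIF-2α/1α replicate 1 had 51.8 at MET +34.7 kb against 45.4 at PLAUR −31.1 kb. By the median over tagged libraries the strongest was PLAUR −31.1 kb (chr19:43701154-43701948), with 32.5. In KIN replicate 3 its background was 0.256 fragments, the depth recovered from that list, against 53 fragments at the summit. Its values were 15.7, 27.2 and 43.0 in KIN replicates 1 to 3, 32.5, 73.8 and 26.3 in HIF-2α, and 45.4, 106.8 and 31.0 in HIF-2α/1α. They were 46.1, 58.2 and 60.7 in HIF-1α and 31.1, 30.2 and 18.7 in HIF-1α/2α. The 3 HIF-1α libraries lay above all KIN and all HIF-1α/2α libraries, and every other pair of lines overlapped. Folds listed here and for the regions below are as deposited, without correction for differences between libraries. The lowest summit held 24 fragments, in KIN replicate 1, and the highest 449, in HIF-2α/1α replicate 2, and the 15 summits fell within 97 bp of each other.

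By −log10 p this region ranked 155 to 857.5 in lists of 3984 to 20808 peaks (median 515.5). It is intergenic, and the nearest protein-coding start is not that of PLAUR but of IRGC, at 14428 bp. The assignment to PLAUR rests on the window alone. At the PLAUR promoter itself, PLAUR +0.2 kb (chr19:43669955-43670643) was called in 10 tagged libraries, with folds of 5.73 to 15.7 and ranks of 3742 to 11516. PLAUR −5.1 kb (chr19:43674831-43675849) was called in 8 and PLAUR +1.7 kb (chr19:43668526-43669231), in intron 1, in 6. In these 3 regions no WT library had a peak, and none passed Fisher's exact test (adjusted p of 0.306, 0.639 and 0.964).

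MET +34.7 kb (chr7:116705470-116708741) is a broad region of 3272 bp in intron 2 of MET, with all 15 summits within 66 bp. Fold enrichment was 8.27, 19.5 and 15.4 in KIN replicates 1 to 3, 25.4, 28.8 and 16.6 in HIF-2α, and 51.8, 95.3 and 19.1 in HIF-2α/1α. It was 29.3, 64.5 and 24.7 in HIF-1α and 19.5, 38.7 and 19.7 in HIF-1α/2α. The KIN libraries lay below all 3 HIF-1α libraries, every other pair of lines overlapped, and HIF-2α/1α replicate 2 was the highest with 601 fragments at the summit. Its ranks ran from 165 to 686 (median 403).

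MET +129.1 kb (chr7:116800410-116801703) lies 3′ of the gene, in intergenic sequence 9761 bp from the start of CAPZA2, which encodes an actin capping subunit. Fold enrichment was 5.83, 12.0 and 13.6 in KIN, 15.1, 77.8 and 16.9 in HIF-2α, and 7.96, 32.3 and 30.6 in HIF-2α/1α. It was 20.5, 17.5 and 13.5 in HIF-1α and 11.9, 25.1 and 14.5 in HIF-1α/2α. The 3 KIN values lay below all 3 HIF-2α values, and every other pair of lines overlapped. After each library was centred on its median over the regions compared, KIN and HIF-2α overlapped too. The centred log2 folds were −0.6, −0.5 and 0.11 in KIN and 0.06, 1.32 and 0.48 in HIF-2α. Ranks ran from 692 to 3243 (median 1339).

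The MET promoter region, MET +0.1 kb (chr7:116671527-116674074), was called in 14 tagged libraries and in no WT library, and was missed in KIN replicate 1. Fold enrichment was 7.60 and 12.3 in KIN replicates 2 and 3, 5.93, 17.5 and 6.38 in HIF-2α, and 29.4, 20.3 and 9.11 in HIF-2α/1α. It was 30.5, 28.7 and 18.5 in HIF-1α and 9.72, 11.9 and 6.61 in HIF-1α/2α. The 3 HIF-1α libraries lay above all KIN, HIF-2α and HIF-1α/2α libraries, and overlapped with HIF-2α/1α. The ranks of HIF-1α were 374, 872 and 1289 in lists of 15058, 20572 and 15909 peaks, against 2330, 1937 and 2938 in HIF-2α lists of 6590, 20651 and 5906. Fisher's exact test on the calls gave an adjusted p of 0.0657.

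**Figure D3:**
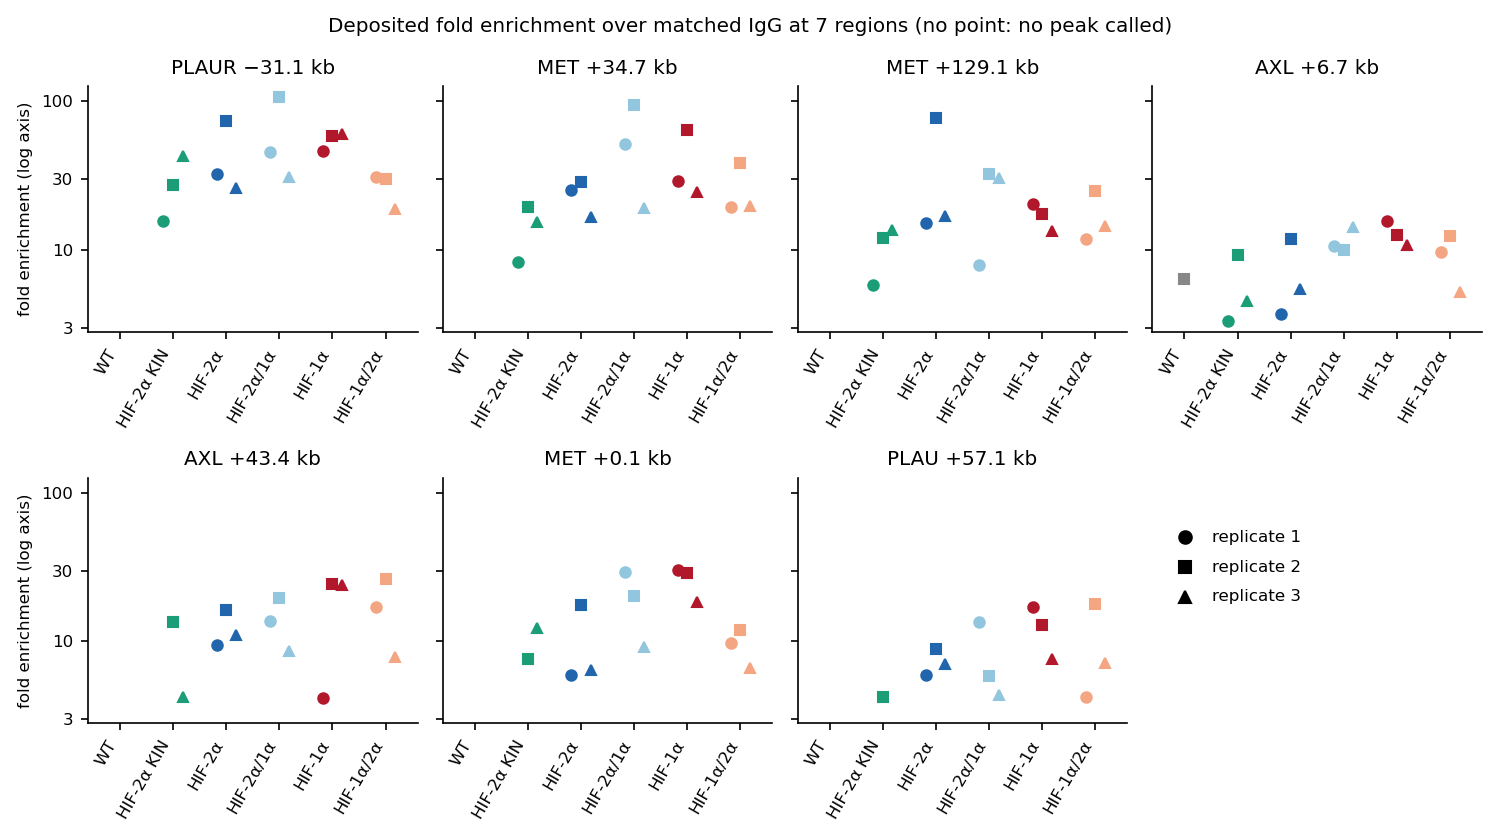
Deposited fold enrichment over the matched IgG library (y axis, log scale) at the 7 member regions called in all 12 exogenous libraries, by line (x axis), with 1 symbol per replicate and no point where no peak was called. WT has a single point, 6.34 in replicate 2 at AXL +6.7 kb, and PLAUR −31.1 kb and MET +34.7 kb reach the highest values, 106.8 and 95.3.

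Other MET regions were called in part of the libraries. MET −18.7 kb (chr7:116652952-116653924), within the lncRNA gene COMETT, MET +44.7 kb (chr7:116716273-116717632) in intron 2 and MET +63.9 kb (chr7:116735386-116737717) in intron 3 were each called in 12 tagged libraries and no WT library, with folds of 5.25 to 25.0, 5.20 to 24.6 and 4.33 to 16.4 (adjusted p = 0.166 in Fisher's exact test for each). MET −41.0 kb (chr7:116631062-116631756) and MET −38.5 kb (chr7:116632751-116634194), also within COMETT, were each called in 8, 3 of them HIF-1α libraries. MET +20.8 kb (chr7:116692570-116693301) was called in 6. MET +2.6 kb (chr7:116674630-116675513), MET +19.8 kb (chr7:116691571-116692147), MET +100.6 kb (chr7:116772701-116773391) and MET +104.7 kb (chr7:116776144-116777790) were called in 4 each. MET +41.8 kb (chr7:116713713-116714355) and MET +130.9 kb (chr7:116802497-116803287) were called in 3, and MET +16.3 kb (chr7:116688110-116688792) and MET +127.9 kb (chr7:116799915-116800324) in 2. All of these 11 had median folds between 3.89 and 7.23, and 7 further regions near MET were seen in a single library.

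AXL +6.7 kb (chr19:41225616-41227346), in intron 4 and 806 bp from an alternative AXL start, was called in all 15 tagged libraries and in WT replicate 2. Fold enrichment was 3.34, 9.21 and 4.50 in KIN, 3.68, 11.9 and 5.46 in HIF-2α, and 10.7, 10.0 and 14.3 in HIF-2α/1α. It was 15.6, 12.6 and 10.7 in HIF-1α and 9.74, 12.5 and 5.21 in HIF-1α/2α. In WT replicate 2 it was 6.34, with 43 fragments at the summit and rank 698.5 of 9508, so that 5 tagged libraries lay below the untagged one in fold. The KIN libraries lay below all HIF-1α and HIF-2α/1α libraries. The region did not pass Fisher's exact test (adjusted p = 0.166). It was the only one of the 32 with a WT call.

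AXL +43.4 kb (chr19:41262275-41264225) was called in 14 tagged libraries, with folds of 4.13 to 26.3 and ranks of 1223.5 to 9459.5, and in no WT library (adjusted p = 0.0657 in Fisher's exact test). It lies past the end of AXL, 47 bp from the start of HNRNPUL1, a gene for an RNA-binding protein. At the AXL promoter, AXL −0.2 kb (chr19:41218579-41219510) was called in 9 tagged libraries, with folds of 4.22 to 9.83. AXL +4.6 kb (chr19:41223291-41224174), in intron 4, was called in 9 and AXL +0.8 kb (chr19:41219829-41220370), in intron 1, in 2.

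Near PLAU no region was called in all 15 tagged libraries. PLAU −2.2 kb (chr10:73906606-73907458) was called in 12 tagged libraries, with folds of 3.38 to 7.89, and PLAU +57.1 kb (chr10:73965560-73966681) in 13, with folds of 4.21 to 17.9. The second lies beyond the gene and nearer to the start of VCL, the vinculin gene, at 28897 bp. Both were called in all 3 replicates of HIF-2α/1α, HIF-1α and HIF-1α/2α but in 1 KIN library, replicate 2. PLAU −9.5 kb (chr10:73899221-73899856), PLAU −1.0 kb (chr10:73907795-73908627) and the promoter region PLAU +0.0 kb (chr10:73908962-73909498) were called in 5 tagged libraries each, and PLAU −14.3 kb (chr10:73894488-73895090) in 4. PLAU +0.0 kb was called in 4 libraries with the HIF-1α DBD, in no exogenous library with the HIF-2α DBD and in 1 KIN library, and Fisher's exact test over the exogenous lines gave p = 0.0606 before and 1.0 after adjustment. In lists of equal length PLAU −2.2 kb was called in no library and PLAU +57.1 kb in 5 tagged libraries.

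The chemokine receptors and their ligand had only peaks of single libraries. CXCR4 had 3, in KIN replicate 2, HIF-2α replicate 2 and WT replicate 2, all intergenic and 19077 bp or more from a protein-coding start. CXCL12 had 1, in HIF-1α replicate 3, 16.0 kb upstream. ACKR3 had 2, of which one, in HIF-2α replicate 2, lay 43 bp from the MANE start of ACKR3 with a fold of 13.4 and 37 fragments at the summit, and the other, in HIF-2α/1α replicate 1, lay at +41.0 kb. Of these 6 peaks 4 came from a replicate 2 list, the longest of each line. Like CXCL12, 15.4% of protein-coding genes had peaks in fewer than 2 libraries. At the threshold of these lists, no region near CXCR4, CXCL12 or ACKR3 was found in 2 libraries, and weaker binding was not measured.

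The next comparisons asked whether the IDR or the DBD sets binding near these genes, over the 12 exogenous libraries. On the number of peaks per gene, the 6 libraries whose IDR came from HIF-2α (lines HIF-2α, HIF-1α/2α) and the 6 with the HIF-1α IDR differed by 0 for PLAU, −0.83 for PLAUR, −0.33 for MET and −1.0 for AXL, with exact permutation p of 1.0, 0.32, 0.925 and 0.225. None of the 4 reached an unadjusted p under 0.05, where 9.28% of all genes tested did, and the median difference over all genes was −0.5. For the HIF-2α DBD (HIF-2α and HIF-2α/1α) against the HIF-1α DBD the differences were −1.33, −1.17, −1.0 and −0.33, with p of 0.19, 0.165, 0.7 and 0.79 in the exact permutation test, where 1.79% of all genes tested fell under 0.05 and the median difference was −0.17. After adjustment no gene of the 16928 was called in either comparison.

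The same held for the calls at single regions. No member region reached an unadjusted p under 0.05 in Fisher's exact test, either for the IDR, where 1.41% of the 25285 regions tested did, or for the DBD, where 0.562% did. After adjustment no region at all was called. The lowest p for the IDR in Fisher's exact test was 0.0606, at MET +2.6 kb, which was called in 4 HIF-2α IDR libraries and in no HIF-1α IDR library. Of these 4, 3 were of HIF-1α/2α and 1 was HIF-2α replicate 2, with folds of 3.17 to 6.33.

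Fold enrichment could be compared at the 7 member regions called in all 12 exogenous libraries, out of 2720 such regions, with limma on log2 fold after each library was centred on its median. For the IDR none of the 7 passed, where 2.28% of all regions did, nor for the DBD, where 3.12% did. The difference farthest from 0 was that of MET +0.1 kb, lower by 0.95 on the log2 scale with the HIF-2α IDR (SE 0.34, 95% interval −1.62 to −0.27, limma adjusted p = 0.113). In the uncentred values, the 6 HIF-2α IDR libraries ran from 5.93 to 17.5 and the 6 HIF-1α IDR libraries from 9.11 to 30.5, so the ranges overlapped. With the rank within each list in place of fold, the difference at MET +0.1 kb was −1.35 on the log2 scale and passed (limma adjusted p = 0.00501). The sign of log2 rank was changed for this test, so a negative difference means weaker ranks with the HIF-2α IDR. Lists differed in length between lines, and log2 ranks, like log2 folds, were centred on the median of each library before this test.

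**Figure D4:**
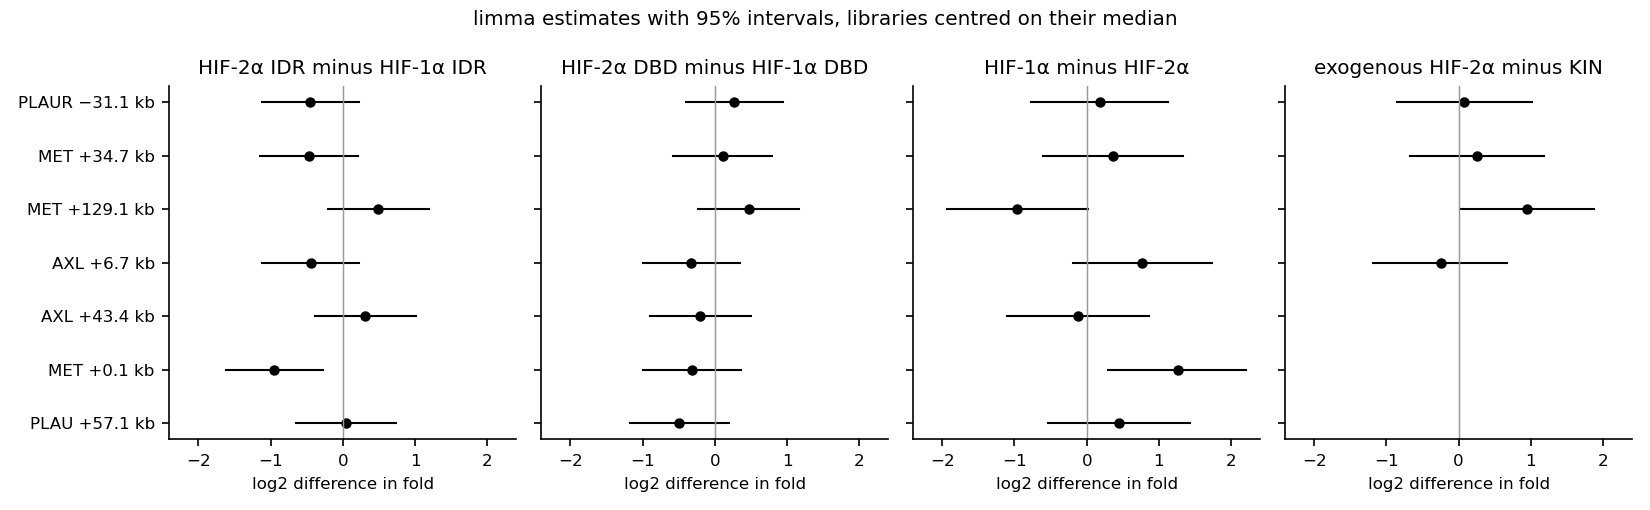
Differences in log2 fold enrichment (x axis, points) with their 95% intervals (lines) from limma at 7 member regions (y axis), for the HIF-2α against the HIF-1α IDR, the HIF-2α against the HIF-1α DBD, HIF-1α against HIF-2α, and exogenous HIF-2α against KIN. The intervals of MET +0.1 kb lie off 0 for the IDR and for HIF-1α against HIF-2α, and that of MET +129.1 kb for KIN, but none of these passed after adjustment over all regions.

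For the other 6 regions the IDR difference lay between −0.47 at MET +34.7 kb and 0.49 at MET +129.1 kb, and every 95% interval held 0. The intervals of PLAUR −31.1 kb (−1.12 to 0.22), MET +34.7 kb (−1.15 to 0.21) and AXL +6.7 kb (−1.12 to 0.23) leave room for a difference of about the size and direction seen at the MET promoter. For the DBD the 7 differences lay between −0.49 at PLAU +57.1 kb and 0.47 at MET +129.1 kb, with limma adjusted p of 0.541 to 0.921. No interaction, the IDR difference with the HIF-2α DBD minus that with the HIF-1α DBD, passed after adjustment at any region. At the 7 member regions it lay between 0.1 at MET +34.7 kb and 1.18 at PLAUR −31.1 kb (interval −0.16 to 2.52). Its SE of 0.68 at PLAUR −31.1 kb was larger than the 0.34 of the IDR difference there. The test therefore does not settle whether the averaged differences hold with both partner parts.

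HIF-1α against HIF-2α, whole against whole, gave no member call either, where 3.24% of regions passed. MET +0.1 kb was higher in HIF-1α by 1.26 on the log2 scale (SE 0.48, interval 0.3 to 2.21, limma adjusted p = 0.139). By within-list rank, from lists of the unequal lengths given above, the difference was 1.91 and passed (limma adjusted p = 0.00481). The sign of log2 rank was again changed, so ranks were stronger in HIF-1α. MET +129.1 kb was lower by 0.96 in HIF-1α (interval −1.94 to 0.02, limma adjusted p = 0.315). The remaining 5 differences lay between −0.12 and 0.77. These contrasts share libraries with those on the IDR and the DBD.

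Exogenous HIF-2α was compared with the endogenous protein in KIN at the 4 member regions called in all 6 libraries of both, out of 1815 regions, of which 0.551% passed. MET +129.1 kb was higher by 0.95 in the exogenous line (SE 0.47, interval 0.02 to 1.88, limma adjusted p = 0.441). The other 3 differences were 0.25 at MET +34.7 kb, 0.08 at PLAUR −31.1 kb and −0.25 at AXL +6.7 kb, all with an SE of 0.47. None of the 4 passed after adjustment.

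**Figure D5:**
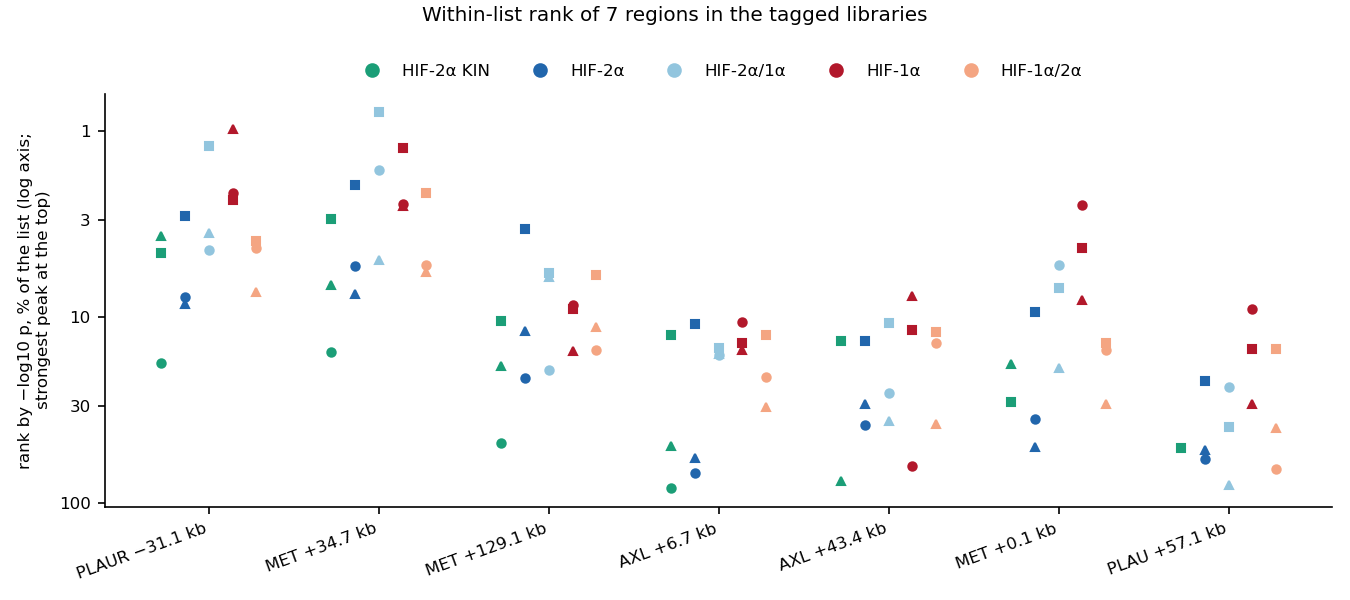
Rank by −log10 p of 7 member regions (x axis) as a percentage of each tagged list (y axis, log scale, strongest at the top), coloured by line, with circles, squares and triangles for replicates 1, 2 and 3. PLAUR −31.1 kb and MET +34.7 kb sit highest, and HIF-1α lies above HIF-2α and HIF-1α/2α at MET +0.1 kb.

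Sequence motifs were counted in the 32 regions and in all 25783 consensus regions. RCGTG was found in 18 of the 32 (56.2%) against 76.0% of all, although the member regions were longer on average, at 1088 against 842 bp. Within 50 bp of the median summit it was found in 6 (18.8%) against 24.5%, and in 4 of these 6 the member was MET. AP-1 sites were found in 20 of the 32 regions (62.5%) against 37.4% of all, and within 50 bp of the summit in 5 (15.6%) against 8.3%. Of the 20 regions, 9 lay near MET and 6 near PLAU. Shares over whole regions were not adjusted for length. The 1201 regions called in all 15 tagged and no WT library averaged 1821 bp, and 52.5% of them held AP-1. A match is a description and does not show that a factor bound there.

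Among the 1201 regions called in all 15 tagged and no WT library, 25 (2.1%) held no RCGTG, and these included 2 of the 3 member regions, MET +34.7 kb and MET +129.1 kb. MET +34.7 kb was the longest of the 25, and of the 90 regions at least as long it was the only one without the motif. Its GC content was 34.0% and that of MET +129.1 kb 40.7%, where the median was 44.1% over the 25 and 50.4% over all 1201. MET +34.7 kb did hold 2 AP-1 sites, the nearer 609 bp from the summit, and MET +129.1 kb held 1 at 89 bp. PLAUR −31.1 kb held 1 RCGTG, part of the longer TACGTG, 85 bp from the summit. By contrast, AXL +6.7 kb held 14 RCGTG, MET +0.1 kb 11 and AXL +43.4 kb 9.

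Promoter sequences in RefSeq (hg38, 300 bases each) were available for 6 of the 7 members, 10 promoters in all. RCGTG was present in at least 1 promoter of PLAU, PLAUR, CXCR4, MET and AXL and in none of CXCL12, where 48.4% of 35093 promoters held it. CXCR4 thus had RCGTG in 2 of its 3 promoters but no peak there in any list. Among these 10 promoters AP-1 was found only in that of PLAUR, where 4.9% of all promoters held it, and TACGTG only in 1 AXL promoter, where 3.2% did. The AP-1 site printed above for MET lies further into the gene than the end of its RefSeq promoter window.

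Around the members, 46 further genes of the same pathways were examined in the same way, of which 37 were tested and 6 called higher in tagged cells, where 10.4% of all genes tested were called, with a median difference of 1.47 peaks against 0.93 over all genes tested. Among the 6 were S100A10, LRP1, MMP2, ACKR4 and MERTK. By group, 4 of 13 tested genes of plasminogen activation and matrix were called, 1 of 11 chemokines and receptors and 1 of 13 ligands and relatives of MET and AXL, the last 2 near the share over all genes. For the IDR, 4 of the 37 had an unadjusted exact permutation p under 0.05, all with fewer peaks on the HIF-2α side (SERPINE2, CXCL16, CX3CL1 and ST14), and for the DBD none had. This count is near the 9.28% of all genes tested, of which 77.5% had fewer peaks on the HIF-2α IDR side whatever their p.

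Regions called in all 15 tagged and no WT library lay in the windows of 5 of the 46. At MIF, which encodes a cytokine that also binds CXCR4, the region lay at the start with folds of 12.3 to 108.3. That of MMP2, a matrix protease, lay in an intron with folds of 10.8 to 48.1. Those in the windows of LRP1, an endocytic receptor, and of the chemokine receptor CCR7 lay at −16.1 kb, in an intron of STAT6, and at +43.7 kb, nearest to TNS4.

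For each member region called in all 15 tagged libraries, the most similar of 1720 such regions elsewhere were sought by the correlation of centred log2 fold over the 15 libraries, 3 of which share each line. PLAUR −31.1 kb was most like regions nearest to RBKS (r = 0.733) and FADS2 (r = 0.723). MET +34.7 kb was most like regions nearest to PTK2 (r = 0.749) and ZNF32 (r = 0.739), and MET +129.1 kb like those nearest to SEMA6A (r = 0.781) and BMPER (r = 0.775). AXL +6.7 kb was most like regions nearest to EGFR (r = 0.701) and RASSF1 (r = 0.689). These were the highest of many correlations and are given as a description.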

How the data were processed

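Cut&Run was performed by the authors on 36 samples, 18 with anti-V5 and 18 with IgG, and 18 peak lists were used, 1 per anti-V5 library. Per the labels and the methods, reads were aligned to hg38 with Bowtie2 2.3.4.1 (local mode, fragments of 10 to 700 bp) and handled with SAMtools 1.8. Peaks were called with MACS2 on each anti-V5 library, with its line's IgG library of equal replicate number as control (q of 0.01, maximum gap of 400 bp, duplicates kept), blacklisted regions were removed with bedtools 2.28.0, and replicates were not pooled. The deposited values are fold enrichment, a ratio to the local background with 1 added to both, and −log10 p and −log10 q, which the authors took from MACS2. Keeping duplicates and comparing each library with its own IgG library can make list length vary with depth and background, so lists were also cut to 3984 peaks. The files hold no peak below the threshold, and a missing peak is not a measured 0.

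Peaks were assigned to 7 members by summit (GENCODE release 44, gene body and 50 kb on either side), and peaks overlapping by at least 1 bp were merged. No peak extended past a chromosome end of the reference used. Within-list rank was by −log10 p. The number of fragments at a summit was recovered from its fold and −log10 p. Peaks per gene were compared by two-sided exact permutation tests, calls per region by two-sided Fisher's exact tests, and log2 fold by limma, each with Benjamini-Hochberg adjustment over all genes or regions tested and a threshold of 0.05. Genes and regions had to be called in at least 2 libraries. With 816 relabellings for tagged against WT and 400 for the IDR or DBD, p could not go below 0.00123 and 0.005. Python 3.11.15, numpy 2.4.6, pandas 2.3.3, scipy 1.17.1, pysam 0.24.0, matplotlib 3.10.9, R 4.3.3 and limma 3.58.1 were used, and the scripts were tested on simulated data.

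All 7 members and every member region called in at least 2 libraries were named. Sequences were shown for some regions called in many libraries and for 2 promoters, and a few items are not reported here. Of the 46 pathway genes, those called, those under an unadjusted p of 0.05 and those with a region in all 15 tagged and no WT library were named, the first 2 kinds after their values were seen. The members and lists were chosen with earlier results of these data known. Alternatives were list length, threshold, window, merging, centring, rank in place of fold, replicate block, motif and window, and leaving out each library.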

Additional observations from a re-analysis of the deposited data

How the results depend on the processing

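Among results for single genes and regions, 645 values kept direction and side of the threshold under the alternatives, 33 reversed, 4 passed only under the alternative and 11 no longer passed. With the replicate block the tagged comparison again called 3 members, and the IDR, DBD and fold comparisons 0, so the block changed no call. Replicate 2 gave the longest list in all 6 lines. Deviations from the line means correlated at −0.069 to 0.219 over the 45 pairs of the same number, 6 above 0.1. The median was 0.033, against −0.014 for different numbers, and 12 of 18 libraries correlated best with their own number. Whether libraries of the same number were handled together was not tested, and the main tests were not blocked by replicate number. Within-list rank in place of fold gave 1 member call for the IDR and 1 for HIF-1α against HIF-2α, both MET +0.1 kb, against 0 each; the cause was not tested. RCGTG within 100 bp of the summit was found in 10 member regions and TACGTG within 50 bp in 0, against 6. Leaving out 1 library gave 0 to 4 member genes and 0 to 5 member regions called in tagged against WT. Both counts were 0 without any one WT replicate, which leaves fewer relabellings, and 5 regions were called without KIN replicate 1. The IDR, DBD, HIF-1α against HIF-2α and KIN comparisons stayed at 0 in all of these. PLAU passed without KIN replicate 1 (exact permutation adjusted p = 0.0277) and without HIF-2α replicate 3 (0.0495). With a window of 10 kb neither PLAUR (exact permutation adjusted p = 0.168) nor PLAU (0.247) passed.

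None of the values that reversed had passed the test. In lists of equal length the IDR difference in peaks was 0.167 for PLAUR, 1.0 for MET and 0.167 for AXL, and the DBD difference 0.167 for PLAUR. The DBD difference was 0.5 for MET at −log10 q of at least 5 and −0.833 for ACKR3 with 100 kb, and the IDR difference for MET was 0.667 with 10 kb. Without centring, log2 differences were −0.258 (PLAU +57.1 kb, IDR), 0.163 (AXL +43.4 kb, HIF-1α against HIF-2α) and 0.263 (AXL +6.7 kb, KIN). By rank, with the sign changed so that higher means stronger, they were −0.084 (PLAU +57.1 kb, IDR), −0.242 (PLAUR −31.1 kb, DBD) and −0.068 (PLAUR −31.1 kb, KIN). Leaving out 1 library gave ranges across 0 of −0.367 to 0.133 for CXCR4 peaks in tagged against WT, −2.167 to 0.833 for MET peaks by IDR and −2.833 to 0.167 by DBD. For log2 fold they were −0.149 to 0.283 (PLAU +57.1 kb, IDR), −0.051 to 0.519 (AXL +43.4 kb, IDR), −0.557 to 0.013 (AXL +43.4 kb, DBD), −0.073 to 0.348 (MET +34.7 kb, DBD), −0.532 to 0.608 (AXL +43.4 kb, HIF-1α against HIF-2α), −0.007 to 0.277 (PLAUR −31.1 kb, HIF-1α against HIF-2α), −0.129 to 0.415 (PLAUR −31.1 kb, KIN) and −0.384 to 0.015 (AXL +6.7 kb, KIN). The single-library peaks near CXCR4 and CXCL12 had 4 to 6 fragments at the summit.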
